A study of Mus musculus with 18 samples.

Results

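The mitoferrin locus is the stretch of mouse chromosome 14 around *Slc25a37*, and its contacts with the *Slc25a37* promoter were measured by NG Capture-C in erythroid cells. The locus was taken as mm9 chr14:69800000-70008977, and its members are the DpnII fragments whose midpoint lies there and more than 1 kb from the promoter fragment used as viewpoint. There were 494 such fragments, of 61609 that were listed on the chromosome outside that 1 kb zone and outside *Loxl2*, the gene that follows the locus at its far end. Fragments were assigned to the locus by position alone. The locus was chosen with earlier results of these data known, and *Loxl2*, where it ends, was left out of the totals because of its counts. Of the 494 fragments, 480 had at least 1 count in the 18 samples. The fragments were 5 to 2352 bp long, with a median of 277.5 bp.

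NG Capture-C ligates chromatin fragments that lie together in the nucleus, pulls down the ligation products of a chosen fragment and counts each distinct product once. The cells were Ter119+ erythroid cells from the spleens of adult mice on a C57BL/6J background that had been treated with phenylhydrazine, which causes anaemia and expands erythroid cells in the spleen. In experiment 1, WT mice were compared with ∆44/48 mice, in which the CTCF sites HS+44 and HS+48 beside the α-globin genes were mutated. In experiment 2, WT mice were compared with ∆θ1, ∆θ2 and ∆θ1/θ2 mice, which had lost the CTCF site at the θ1 gene, at the θ2 gene or at both. Each of the 6 groups held 3 biological replicates, and all deletion mice were homozygous. Every deletion lies on chromosome 11, so no sequence of the mitoferrin locus was meant to differ between genotypes. The models were made by CRISPR-Cas9 editing of embryonic stem cells or zygotes, which of these for each model is not given in the sources used here, and a deletion cannot be told apart from any other difference between its line and WT. The 3 θ deletions were compared with the same 3 WT samples and so are not independent of each other.

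*Slc25a37* encodes mitoferrin-1, which carries iron through the inner mitochondrial membrane and supplies it for heme synthesis in red cell precursors. An active promoter makes most of its contacts with nearby chromatin, and contact frequency falls with distance. Enhancers and sites bound by CTCF, a zinc finger protein that stops loop extrusion, can stand above that decline. No transcript was measured in these samples, so the locus is described by contacts only.

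*Slc25a37* runs on the minus strand from chr14:69859908-69903160 with 4 exons. Exon 1 (chr14:69902789-69903160) lies in the viewpoint fragment, chr14:69902454-69903469. Exons 2 (chr14:69867451-69867679), 3 (chr14:69865638-69865694) and 4 (chr14:69859908-69863411) lie at the other end of a long intron 1. Distances are given from the centre of the viewpoint fragment, negative into the gene body and its 3' flank and positive on the upstream side. Upstream lie *D930020E02Rik* (chr14:69907401-69912356), which encodes the envelope-derived fusogen syncytin-B of the placenta, the lincRNA gene *Gm16677* (chr14:69946056-69955139), *Entpd4* (chr14:69955208-69985327), which encodes a nucleoside diphosphatase of the Golgi and lysosomes, and the lincRNA gene *Gm16867* (chr14:69981561-70162426), which overlaps the end of *Entpd4* and runs on through *Loxl2*.

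The sequences shown were read from the mm9 genome, and whether any motif in them bears on a contact was not tested. The fragment with the most counts in the broad upstream contact peak described further on lies at chr14:69938735-69939526, in no annotated gene, and held AGATAA, letters that the erythroid factor GATA1 can bind, 2 times in 792 bp, once on each strand. Of 15441 DpnII fragments on chromosome 14 whose length was within 10% of that, 12.5% held at least as many. Both stretches are shown on the plus strand with the match in capitals, the first at chr14:69939007-69939111 and the second at chr14:69939436-69939526.
peak 2 fragment, match 1: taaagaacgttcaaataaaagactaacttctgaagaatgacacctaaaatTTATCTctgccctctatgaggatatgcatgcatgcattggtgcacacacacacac
peak 2 fragment, match 2: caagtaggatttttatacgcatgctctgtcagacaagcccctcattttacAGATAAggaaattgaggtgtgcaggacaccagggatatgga
Over the locus AGATAA occurred 111 times on both strands together, or 0.53 per kb, against 0.77 per kb on chromosome 14, and the erythroid CACC letters CCACACCC occurred 9 times, or 0.043 per kb against 0.057 per kb.

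Letters like the core of the CTCF motif, CCA, any 2 bases, AG, any 2 bases and GGC on either strand, occurred 15 times in the locus, or 0.072 per kb against 0.047 per kb on the chromosome. Of the 15, the 4 shown were chosen after the values were seen, 2 beyond the 3' end of *Slc25a37* and 2 inside the upstream peak. Others near them, such as those at -40.0 and +29.4 kb, are not shown, and the capitals mark the 12 letters searched. They lie at chr14:69856433-69856472, chr14:69859778-69859817 and chr14:69944015-69944054 on the minus strand and at chr14:69932685-69932724 on the plus strand.
match at -46.5 kb: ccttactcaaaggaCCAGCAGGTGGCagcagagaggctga
match at -43.2 kb: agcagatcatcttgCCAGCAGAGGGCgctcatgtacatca
match at +29.7 kb: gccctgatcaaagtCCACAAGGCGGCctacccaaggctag
match at +41.1 kb: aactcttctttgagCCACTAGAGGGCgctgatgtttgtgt
A match is a run of letters and not a measured site, and CTCF binding was not among the data used here.

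The contacts of the locus were dense in all 18 samples. Of all counts on chromosome 14 outside the zone and *Loxl2*, which are the totals used for scaling, the locus held 57.8 to 60.9% in WT of experiment 1, 57.4 to 66.1% in ∆44/48, 57.9 to 62.3% in WT of experiment 2, 57.1 to 62.9% in ∆θ1, 59.2 to 65.9% in ∆θ2 and 68.8 to 68.9% in ∆θ1/θ2. These totals, the depth of each sample, ran from 44505 to 50922 in WT of experiment 1, from 17870 to 80178 in ∆44/48, from 12173 to 24023 in WT of experiment 2, from 13579 to 42209 in ∆θ2 and from 15151 to 28494 in ∆θ1/θ2. The ∆θ1 samples were the shallowest by far, with totals of 1073 to 3213 and as few as 675 counts on the locus. Replicate 1 of ∆44/48 stood apart in repeat counts, with 1.83 counts per fragment hit on other chromosomes against 1.22 to 1.26 in the other samples of experiment 1. *Loxl2* was left out of the totals because its counts per 100000 ran from 915 to 1340 in WT and from 5115 to 8604 in the deletion samples. The errors given hold counting error and the spread between mice together, and PCR repeats were removed before deposition.

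In WT cells the contact density, given as counts per kb per 100000 of the total, was highest beside the promoter and formed a shoulder upstream. In experiment 1 the mean over the 3 WT samples was 1524 in the 5 kb window from -5 kb to the viewpoint and 1111 in the next window into the gene. On the upstream side it fell to 463 between +20 and +25 kb. It then rose again to 811 between +30 and +35 kb and 818 between +35 and +40 kb, and ended steeply, with 232 between +45 and +50 kb and 30 between +60 and +65 kb. On the gene side the density had fallen to 277 between -30 and -25 kb, was 337 between -35 and -30 kb, and then declined to 33 between -60 and -55 kb and 23 between -90 and -85 kb.

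**Figure D1:**
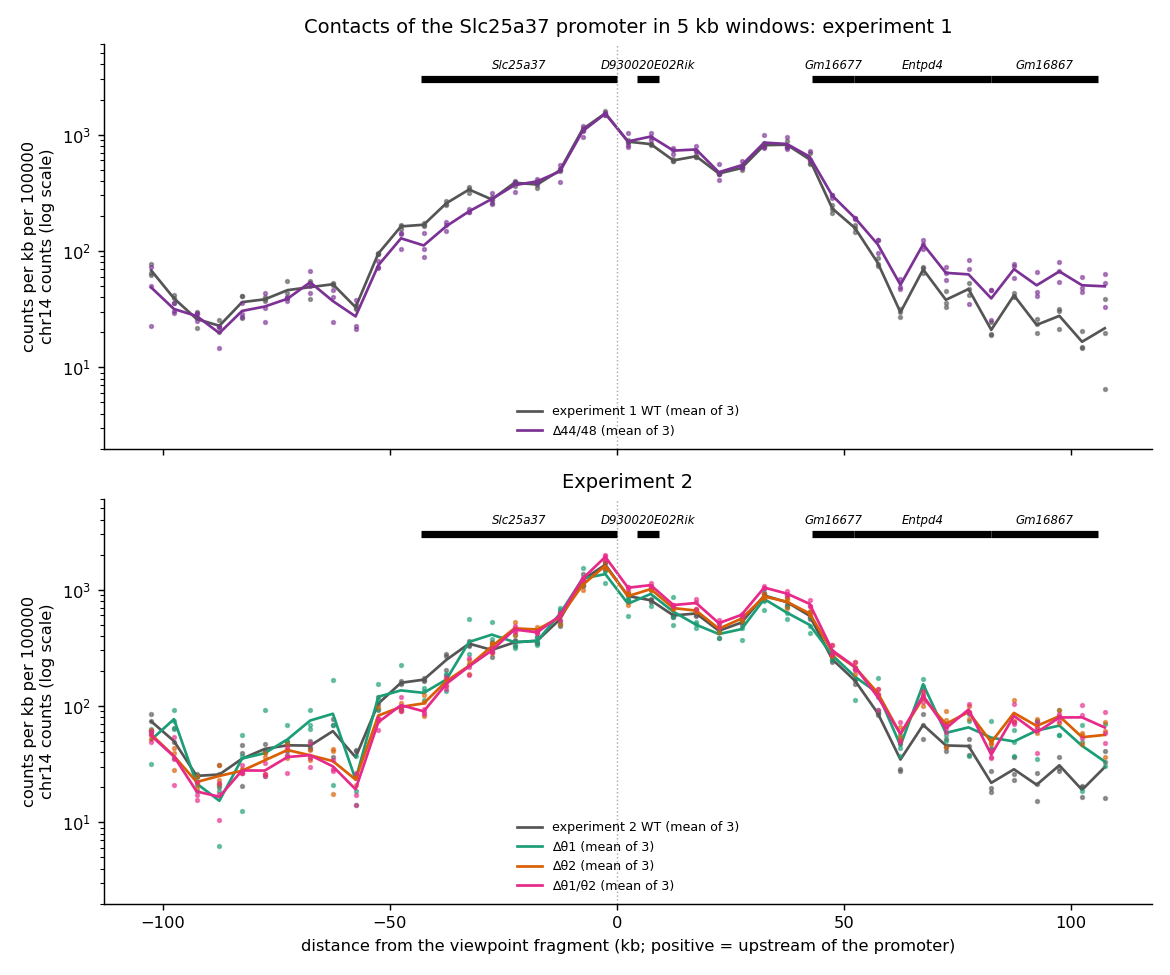
Contact density of 5 kb windows against distance from the centre of the *Slc25a37* viewpoint fragment in kb, on a log axis in counts per kb per 100000 counts, with 1 point for each sample and a line through the mean of 3 samples of each group, and 2 sample values at 0 not drawn. WT means of experiment 1 fall from 1524 beside the promoter and rise again to 818 at +35 to +40 kb. They reach 30 at +60 to +65 kb. From +55 to +105 kb the deletion samples lie above WT in most windows but not in all. In ∆θ1 they overlap with WT in 4 of 10 windows.

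Levels differed widely between members. In WT of experiment 1 the quartiles over the 494 fragments were 15.5, 38.7 and 173 counts per 100000, and 16 fragments had none. The 10 fragments with the highest counts held 13.4% of the locus, and all lay between -6.8 and +4.9 kb. The highest, a fragment of 777 bp at chr14:69900630-69901406 in intron 1, held 1388 counts per 100000 in WT of experiment 1 and 1212 in WT of experiment 2. Across the 480 fragments with a count the WT means of the 2 experiments had r = 0.95 and rho = 0.96. This is a description over fragments that share each library and are not independent replicates.

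The deletion samples differed from WT most at the upstream end, over *Entpd4* and the part of *Gm16867* beyond it, where all 12 deletion samples lay above every WT sample of their experiment. Of 8 annotated intervals into which the locus was divided, 2 were called in ∆44/48, both higher, and 0.0781% of the 2560 intervals and 10 kb windows tested on the chromosome were called, all higher. In ∆θ1, 2 were called, both higher, with 0.338% of 592 called on the chromosome, all higher. In ∆θ2, 4 were called, 3 higher and 1 lower, with 0.278% of 1439 called (0.208% higher and 0.0695% lower). In ∆θ1/θ2, 6 were called, 5 higher and 1 lower, with 0.758% of 1055 called (0.474% higher and 0.284% lower). Calls rest on edgeR's quasi-likelihood test at an adjusted p of 0.01 over all rows of the chromosome. The intervals of the locus were thus all of the called rows of that table in ∆44/48, ∆θ1 and ∆θ2, and 6 of 8 in ∆θ1/θ2. These 8 intervals held 57.1 to 68.9% of the totals, and most other rows had far fewer counts to be called on. Where the calls lie is therefore no measure of where contacts changed.

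The part of *Gm16867* outside *Entpd4*, from +82.4 to +106.0 kb with 63 fragments, is the stretch of the locus next to *Loxl2*. Its density was 26.3, 27.2 and 24.6 in the WT samples of experiment 1 and 45.2, 57.3 and 65.7 in ∆44/48, a log2 fold change of 1.12 ± 0.14 (SE, n = 3 against 3, edgeR adjusted p = 1.3e-11). In experiment 2 the WT samples had 21.6, 26.6 and 23.3. The ∆θ1 samples had 59.2, 55.2 and 39.4, from 45, 37 and 10 counts (log2 fold change 1.17 ± 0.22, edgeR adjusted p = 8.1e-05). All samples of both deletions lay above their WT samples, and the range within ∆44/48 was wider than within WT. The ∆θ2 samples had 66.9, 66.1 and 73.8 (1.51 ± 0.13, edgeR adjusted p = 6.5e-28), and the ∆θ1/θ2 samples had 67.4, 71.0 and 74.8 (1.54 ± 0.099, edgeR adjusted p = 9.2e-50). These 6 samples were all more than 2 times as high as any WT sample of their experiment. *Loxl2*, next to this stretch, was higher in the same samples, and its part in the gain was not tested. The ∆θ1 call was lost without its replicate 1 (log2 fold change 1.06, edgeR adjusted p = 0.088) and with DESeq2 (0.68, adjusted p = 0.95). With TMM factors ∆θ1 fell to 0.09 and the ∆44/48 call was lost at 1.08 (edgeR adjusted p = 0.70).

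Over *Entpd4*, from +52.2 to +82.4 kb with 75 fragments, the density was 63.8, 58.5 and 64.6 in WT of experiment 1 and 81.9, 93.8 and 97.0 in ∆44/48 (log2 fold change 0.55 ± 0.10, edgeR adjusted p = 5.3e-05). The WT samples of experiment 2 had 68.1, 65.8 and 63.5, and the ∆θ1 samples 103, 104 and 86.6 (0.61 ± 0.14, edgeR adjusted p = 0.0055). The gain over *Entpd4* was thus smaller on the log2 scale than that over *Gm16867* in each of the 4 deletions. The difference between the 2 intervals was not tested. The ∆θ2 samples had 108, 109 and 92.2 (0.66 ± 0.087, edgeR adjusted p = 3.0e-11), and the ∆θ1/θ2 samples had 99.6, 103 and 98.0 (0.61 ± 0.073, edgeR adjusted p = 8.7e-14). In both groups every sample was above WT. In ∆44/48 the call was lost without WT replicate 2 (edgeR adjusted p = 0.047) and in ∆θ1 without WT replicate 3, ∆θ1 replicate 1 or ∆θ1 replicate 2 (edgeR adjusted p = 0.024, 0.28 and 0.11), all with log2 fold changes above 0.5. With DESeq2 or totals outside the locus neither call was made, at 0.58 and 0.65 in ∆44/48 and 0.10 and 0.56 in ∆θ1. With TMM factors the ∆θ1 value turned to -0.48, and the calls were lost in ∆44/48 (0.50) and ∆θ2 (0.87, edgeR adjusted p = 0.051). In ∆θ1 the call was also lost with *Loxl2* in the totals (0.54) and at a minimum of 1 count (0.61).

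**Figure D2:**
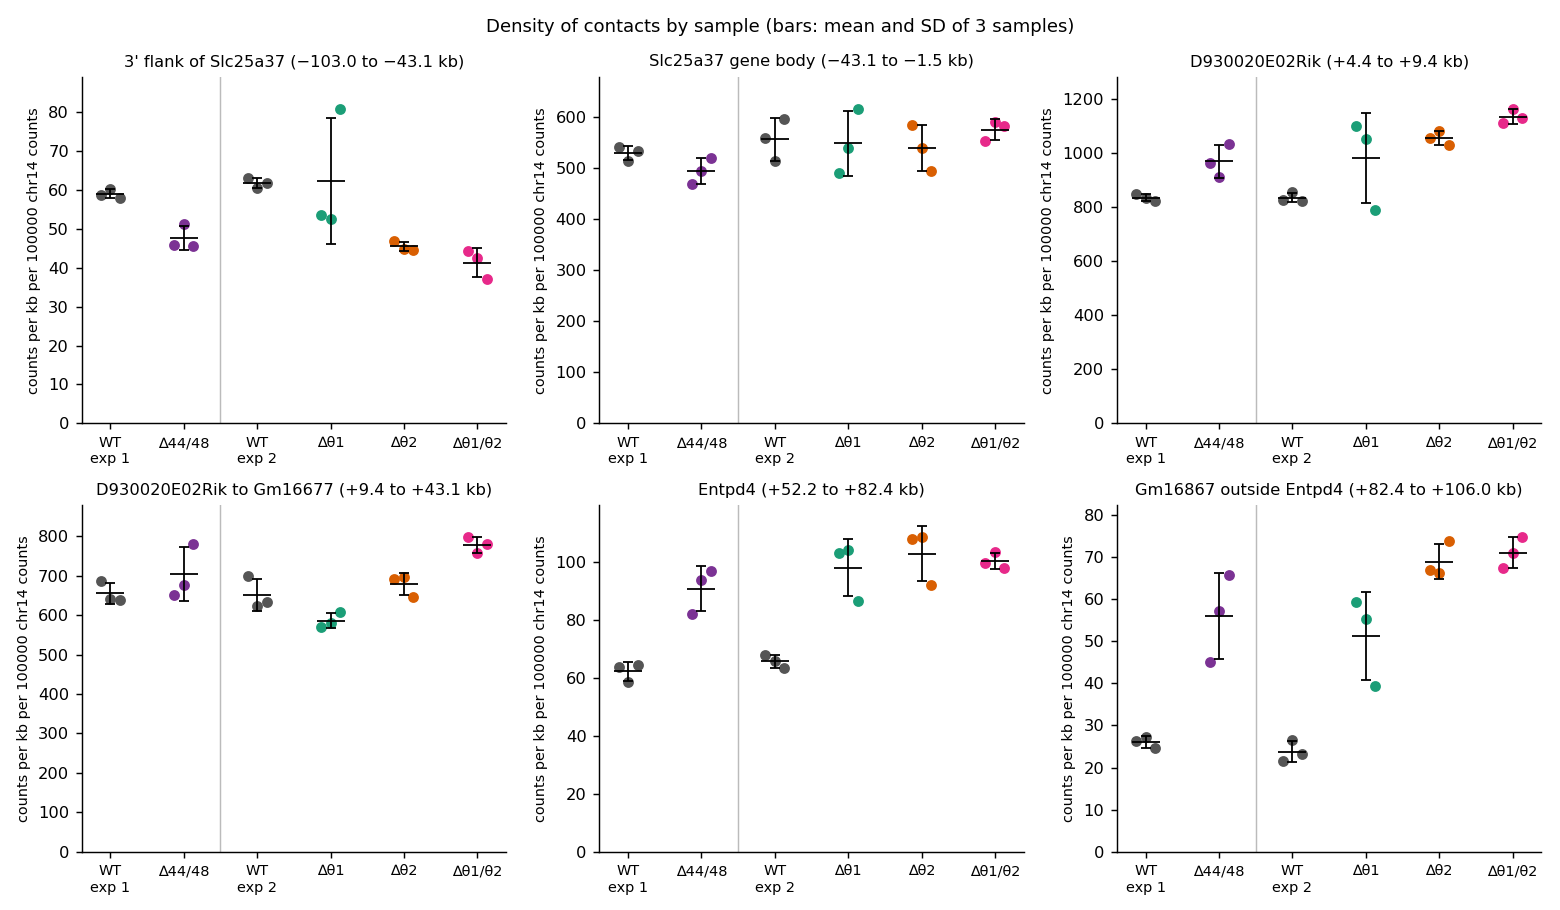
Contact density of annotated intervals of the locus, in counts per kb per 100000 counts. Each point is 1 of the 18 samples, and a bar marks the mean of each group of 3. Over *Entpd4* and *Gm16867* outside *Entpd4* all deletion samples lie above the WT samples of their experiment, and over the gene body the groups overlap.

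Cut into 5 kb windows counted from the viewpoint centre, a division chosen after the data were seen, the locus held 43 windows. Of these, ∆44/48 had 8 called, 5 higher and 3 lower, with 0.268% of 2990 windows called on the chromosome (0.167% higher and 0.1% lower). ∆θ2 had 13, 9 higher and 4 lower, with 1.13% of 1410 called (0.638% higher and 0.496% lower), and ∆θ1/θ2 had 14, 9 higher and 5 lower, with 1.73% of 983 called (0.916% higher and 0.814% lower). No window was called in ∆θ1 by edgeR or by DESeq2, with 0% of 473 called on the chromosome, and 43 of the 473 had an unadjusted p under 0.05 in edgeR. In the 10 windows from +55 to +105 kb the log2 fold change was above 0 in every window of every deletion, from 0.50 to 1.62 in ∆44/48, from 0.39 to 1.44 in ∆θ1, from 0.59 to 1.65 in ∆θ2 and from 0.49 to 2.00 in ∆θ1/θ2. All samples lay above WT in 9, 6, 9 and 10 of these windows.

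The last full window, from +100 to +105 kb, held few counts in WT. Its density was 14.8, 20.4 and 14.6 in WT of experiment 1 and 44.8, 48.1 and 59.4 in ∆44/48 (log2 fold change 1.62 ± 0.24, edgeR adjusted p = 2.5e-08). The WT samples of experiment 2 had 20.7, 20.0 and 16.4. The ∆θ1 samples had 68.5, 49.4 and 18.6 and were spread across the WT range, with a log2 fold change of 1.44 that was not called (edgeR adjusted p = 0.15). The ∆θ2 samples had 58.4, 56.4 and 47.1 (1.51 ± 0.25, edgeR adjusted p = 3.7e-07), and the ∆θ1/θ2 samples had 53.3, 83.4 and 103 (2.00 ± 0.26, edgeR adjusted p = 5.6e-12). Between +85 and +100 kb the log2 fold changes of the 3 windows were 0.77, 1.17 and 1.30 in ∆44/48, 0.83, 1.44 and 1.19 in ∆θ1, 1.48, 1.65 and 1.39 in ∆θ2 and 1.44, 1.47 and 1.39 in ∆θ1/θ2. The windows from +85 to +105 kb kept their sign in every alternative run for all 4 deletions. The ∆44/48 call from +85 to +90 kb was made in only 4 of 15 alternatives and, of the 6 that left out a replicate, in the 1 without ∆44/48 replicate 1.

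Single fragments showed the same direction over this stretch. Of the 63 fragments from +80 to +105 kb with a count, 61 had a higher mean in ∆44/48 than in WT and 2 a lower mean. In ∆θ2 these numbers were 61 and 2, in ∆θ1/θ2 56 and 7, and in ∆θ1, where only 18 of them had enough counts to be tested, 35 and 27. Over all tested fragments of the chromosome the median log2 fold change was 0.003 in ∆44/48, 0.02 in ∆θ2, 0.11 in ∆θ1/θ2 and -0.10 in ∆θ1, and over the tested members it was 0.11 of 476, 0.12 of 460, 0.19 of 447 and -0.10 of 367.

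Nearer to the promoter the upstream side held fewer differences. Between the promoter and *D930020E02Rik*, with 4 fragments, no deletion was called, and the log2 fold changes were 0.02 in ∆44/48, -0.35 in ∆θ1, -0.02 in ∆θ2 and 0.21 in ∆θ1/θ2. With DESeq2 and with totals outside the locus ∆θ1/θ2 was called higher there, at 0.54 (adjusted p = 6.9e-04) and 0.57 (edgeR adjusted p = 1.2e-07), and with TMM factors ∆θ1 was called lower, at -1.41 (edgeR adjusted p = 2.7e-08). Over *D930020E02Rik* itself, from +4.4 to +9.4 kb with 12 fragments, the density was 849, 832 and 823 in WT of experiment 1 and 962, 912 and 1033 in ∆44/48. These groups did not overlap, but the log2 fold change of 0.22 was not called (edgeR adjusted p = 0.81). In experiment 2 the WT samples had 826, 855 and 824, and the ∆θ1 samples 1099, 1053 and 790 (0.29, edgeR adjusted p = 0.59), which were called with the zone wider by 5 kb, at 0.65 (edgeR adjusted p = 6.5e-04). With TMM factors ∆θ1 was instead called lower, at -0.81 (edgeR adjusted p = 6.8e-04), and with DESeq2 it was -0.23 and not called. The ∆θ2 samples had 1056, 1081 and 1031 (0.34 ± 0.075, edgeR adjusted p = 0.0021), and the ∆θ1/θ2 samples had 1110, 1164 and 1131 (0.44 ± 0.064, edgeR adjusted p = 2.1e-09), all above WT. The ∆θ2 call was lost without any WT replicate (edgeR adjusted p = 0.059, 0.017 and 0.12 for replicates 1 to 3), without its own replicate 1 or 2 (0.032 and 0.062), at a minimum of 1 count (0.024), with TMM factors or totals outside the locus (0.55 and 0.46, edgeR adjusted p = 0.99 and 0.56) and with *Loxl2* in the totals, at 0.24 (edgeR adjusted p = 0.16).

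The broad upstream shoulder was called as a contact peak, meaning 2 kb windows with at least 2 times the counts expected at their distance, on the counts of experiment 1 summed over both genotypes. It spanned 17.5 kb at chr14:69932500-69949999 around +38.3 kb with 53 fragments, reached 5.12 times the expected count, and covered the end of *Gm16677* nearer to the promoter and the gene-free stretch before it. In WT alone it reached 5.05 times in experiment 1 and 4.77 times in experiment 2. Its density was 745, 654 and 657 in WT of experiment 1 and 666, 683 and 821 in ∆44/48, groups that overlapped (log2 fold change 0.08). In experiment 2 the WT samples had 751, 666 and 674, the ∆θ1 samples 615, 661 and 570 (-0.17, edgeR adjusted p = 0.46), and the ∆θ2 samples 714, 732 and 661 (0.01). Only the ∆θ1/θ2 samples, with 869, 816 and 820, were called, at 0.26 (edgeR adjusted p = 0.0074). That call was lost without any 1 of the 3 ∆θ1/θ2 replicates (edgeR adjusted p = 0.23, 0.026 and 0.079), at log2 fold changes of 0.23 to 0.28, with *Loxl2* in the totals (0.17), at a minimum of 1 count and in a fit over all groups of the experiment (0.26 in both). The fragment with the most counts in the peak, whose stretches with AGATAA are shown above, held 568, 475 and 432 counts per 100000 in WT of experiment 1 and 425, 551 and 535 in ∆44/48. It held 469, 483 and 452 in WT of experiment 2, 498, 459 and 932 in ∆θ1, 543, 543 and 523 in ∆θ2 and 530, 538 and 376 in ∆θ1/θ2, and it was called in no deletion.

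The stretch from *D930020E02Rik* to *Gm16677*, with 81 fragments, had a density of 656 ± 26.9 (SD, n = 3) in WT and 704 ± 68.5 in ∆44/48. In experiment 2 it had 652 ± 40.8 in WT, 586 ± 19.6 in ∆θ1 and 779 ± 20.9 in ∆θ1/θ2, where the log2 fold change was 0.26 (edgeR adjusted p = 0.0011). The ∆θ2 samples had 692, 697 and 647 and were not called. Over *Gm16677*, with 25 fragments, the density was 252 ± 17.7 in WT and 314 ± 15.5 in ∆44/48, with no overlap and a log2 fold change of 0.32 that was not called (edgeR adjusted p = 0.39). There it was 270 ± 11.9 in WT of experiment 2, 312 ± 29.3 in ∆θ2 (0.22, edgeR adjusted p = 0.71) and 337 ± 22.7 in ∆θ1/θ2 (0.33, edgeR adjusted p = 8.1e-04). The ∆θ1 samples had 248, 274 and 234 over *Gm16677* and were not called. With TMM factors ∆θ1 was called lower in the first stretch and over *Gm16677*, at -1.27 and -1.17 (edgeR adjusted p = 1.7e-14 and 4.2e-06). The call in ∆θ1/θ2 was lost in the first stretch without WT replicate 2 or 3 or any 1 of the ∆θ1/θ2 replicates (log2 fold changes of 0.22 to 0.28, edgeR adjusted p up to 0.11), and over *Gm16677* without WT replicate 1 or 2 or ∆θ1/θ2 replicate 1 or 3 (0.26 to 0.36, edgeR adjusted p up to 0.14). Both were also lost with *Loxl2* in the totals (0.16 and 0.23), in a fit over all groups of the experiment (0.26 and 0.32) and with TMM factors (0.52 and 0.59), and the first also at a minimum of 1 count (edgeR adjusted p = 0.030).

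The body of *Slc25a37*, from -43.1 to -1.5 kb with 100 fragments, held a like total in all groups. Its density was 530 ± 13.4 in WT of experiment 1 (SD, n = 3) and 494 ± 25.8 in ∆44/48, and 556 ± 41.8 in WT of experiment 2, 549 ± 63.7 in ∆θ1, 540 ± 45.1 in ∆θ2 and 576 ± 20.4 in ∆θ1/θ2. The log2 fold changes were -0.10, -0.04, -0.04 and 0.05. All groups overlapped with WT and none was called, though with other scalings the sign turned in all but ∆θ1. With DESeq2 and with totals outside the locus ∆θ1/θ2 was called higher, at 0.37 (adjusted p = 2.7e-05) and 0.39 (edgeR adjusted p = 8.0e-04). With TMM factors ∆θ1 was called lower, at -1.16 (edgeR adjusted p = 1.9e-12).

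From -45 to -30 kb, which covers exons 2 to 4 and the last part of intron 1, the 3 windows of 5 kb were lower in ∆44/48 by log2 fold changes of -0.65, -0.67 and -0.63, listed from the far end (edgeR adjusted p = 4.0e-05, 3.9e-07 and 4.4e-07). In ∆θ2 they were -0.63, -0.63 and -0.60, and in ∆θ1/θ2 -0.91, -0.70 and -0.65, all called. In ∆θ1 they were -0.32, -0.60 and -0.17, and none was called. The windows from -50 to -45 kb were also called lower in ∆θ2 (-0.67) and ∆θ1/θ2 (-0.61), as was that from -65 to -60 kb in ∆θ1/θ2 (-1.05). The ∆θ1/θ2 call from -50 to -45 kb was made in 11 of 16 alternatives, and of the 6 that left out a replicate not in those without WT replicate 1 or ∆θ1/θ2 replicate 3, with log2 fold changes from -0.76 to -0.26, and the ∆θ2 call in 13 of 16, with DESeq2, TMM factors and totals outside the locus as the exceptions. The call from -65 to -60 kb was made in 10 of 16, and not without WT replicate 1 or 2 or ∆θ1/θ2 replicate 1. The calls from -45 to -30 kb depended on the totals. With DESeq2, TMM factors or totals outside the locus the log2 fold changes were -0.53 to -0.69 in ∆44/48, -0.35 to -0.51 in ∆θ2 and -0.30 to -0.66 in ∆θ1/θ2, and of these 27 values 1 was called, that of the farthest window in ∆θ1/θ2 with DESeq2 (adjusted p = 0.0020). The farthest window was also not called in ∆44/48 without WT replicate 3 (edgeR adjusted p = 0.016) or without ∆44/48 replicate 2 (0.010).

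In the window from -35 to -30 kb the density was 353, 315 and 344 in WT of experiment 1 and 227, 216 and 214 in ∆44/48. In experiment 2 it was 363, 331 and 337 in WT, 247, 230 and 189 in ∆θ2 and 217, 185 and 256 in ∆θ1/θ2. No sample of these 3 deletions reached the lowest WT sample. The ∆θ1 samples, with 224, 282 and 559, lay on both sides of WT. In the adjacent window nearer to the promoter, from -30 to -25 kb, the density was 260, 282 and 289 in WT of experiment 1 and 252, 274 and 313 in ∆44/48, and in experiment 2 it was 294, 264 and 352 in WT, 336, 374 and 522 in ∆θ1, 349, 343 and 284 in ∆θ2 and 293, 317 and 292 in ∆θ1/θ2. All groups overlapped there, and the log2 fold changes of 0.03, 0.36, 0.14 and 0.01 were not called. From -25 to -20 kb ∆θ2 and ∆θ1/θ2 were called higher, at 0.41 and 0.36 (edgeR adjusted p = 0.0053 and 0.0064), and ∆44/48 and ∆θ1 had -0.06 and 0.03. The ∆θ2 call was made in only 4 of 16 alternatives, of the 6 that left out a replicate in the 1 without ∆θ2 replicate 3. The ∆θ1/θ2 call was made in 9 of 16, of these 6 in the 2 without WT replicate 2 or 3.

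**Figure D3:**
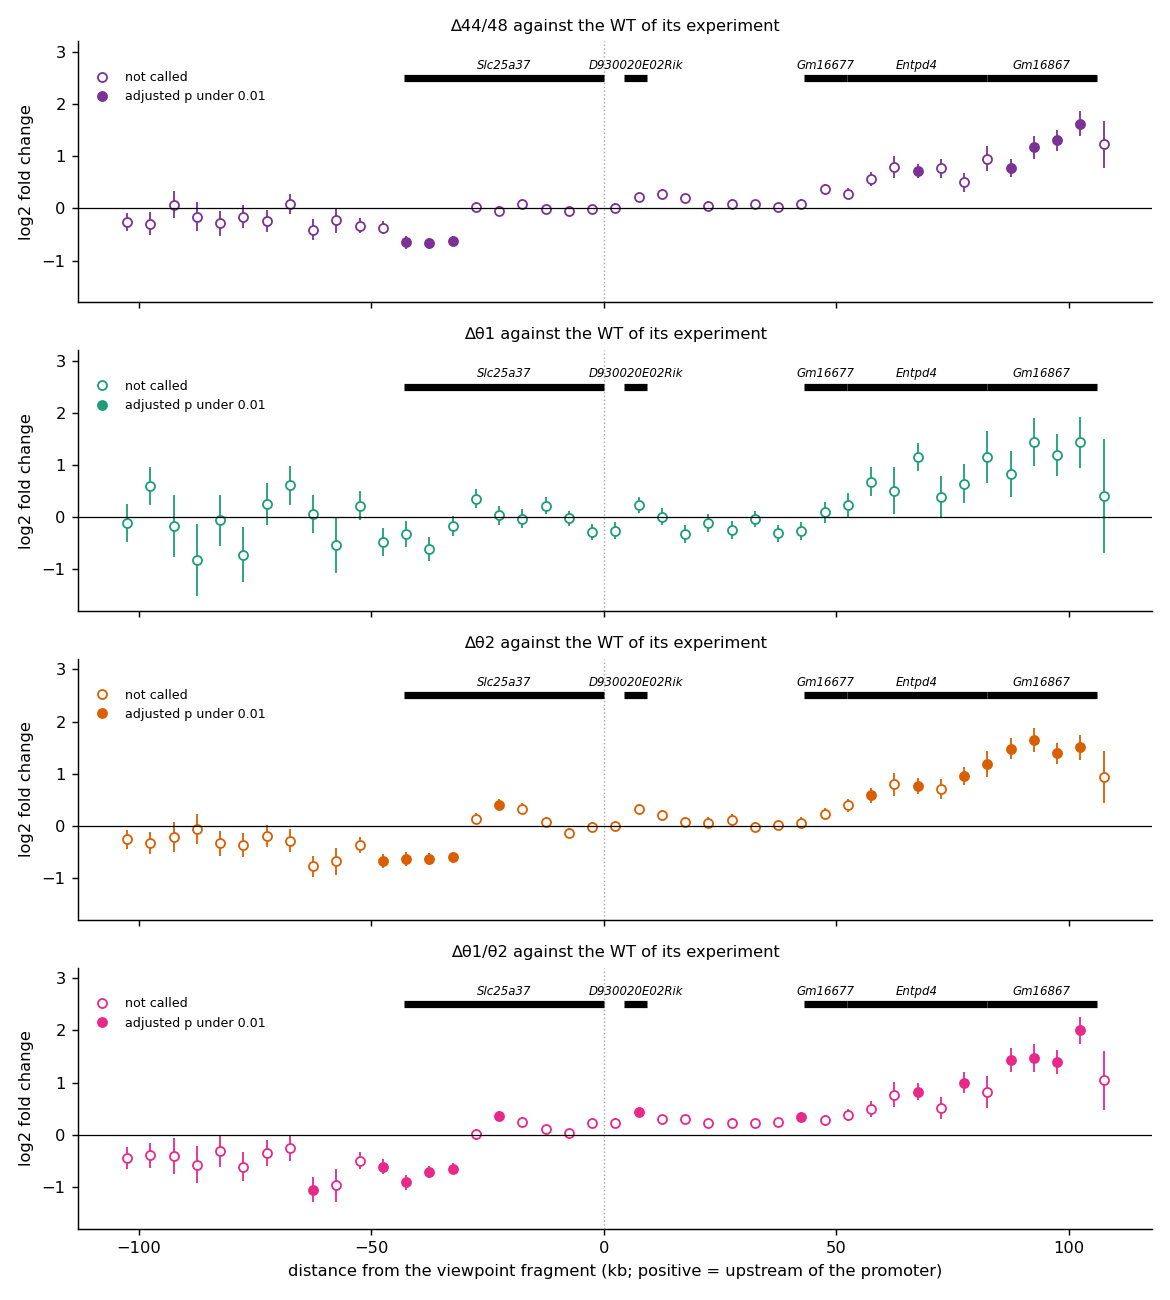
Log2 fold change of contact density, deletion over WT of the same experiment, for the 5 kb windows of the locus against distance from the viewpoint centre in kb, with 1 panel for each deletion, error bars of 1 SE from edgeR and filled points at an adjusted p under 0.01. Windows from -45 to -30 kb lie at -0.60 to -0.91 in ∆44/48, ∆θ2 and ∆θ1/θ2, and windows from +85 to +105 kb lie at 0.77 to 2.00 in the 4 deletions.

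The border at -30 kb is an edge of the 5 kb windows and was chosen after the values were seen, so the values on its sides are a description. Of the 36 fragments from -45 to -30 kb with a count, 35 had a lower mean in ∆44/48 than in WT (median log2 fold change -0.62), as did 34 in ∆θ2 (-0.61), 35 in ∆θ1/θ2 (-0.79) and 24 in ∆θ1 (-0.45). Of the 33 fragments from -30 to -15 kb, 14, 8, 12 and 15 were lower, with medians of 0.06, 0.30, 0.23 and 0.07. The log2 ratio of the window from -35 to -30 kb to that from -30 to -25 kb, which needs no scaling to the chromosome, was 0.44, 0.16 and 0.25 in WT of experiment 1 and -0.15, -0.35 and -0.55 in ∆44/48. It was 0.30, 0.32 and -0.06 in WT of experiment 2, -0.59, -0.41 and 0.10 in ∆θ1, -0.50, -0.58 and -0.59 in ∆θ2 and -0.43, -0.78 and -0.19 in ∆θ1/θ2. Every sample of ∆44/48, ∆θ2 and ∆θ1/θ2 had a ratio below its WT samples, and 1 of the 3 ∆θ1 samples did not.

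The 3' flank, from -103.0 to -43.1 kb with 134 fragments, lay lower in the same 3 deletions. Its density was 58.8, 60.2 and 57.9 in WT of experiment 1 and 46.0, 51.2 and 45.6 in ∆44/48, groups that did not overlap, with a log2 fold change of -0.31 ± 0.089 that was not called (edgeR adjusted p = 0.37). In experiment 2 it was 63.0, 60.6 and 61.8 in WT and 53.5, 52.4 and 80.9 in ∆θ1 (-0.09, edgeR adjusted p = 0.86), which overlapped. With TMM factors ∆θ1 was called lower, at -1.17 (edgeR adjusted p = 1.8e-07). The ∆θ2 samples had 46.9, 44.9 and 44.6 (-0.44 ± 0.080, edgeR adjusted p = 2.1e-05), and the ∆θ1/θ2 samples had 44.2, 42.5 and 37.1 (-0.57 ± 0.069, edgeR adjusted p = 9.5e-14), all below WT. Both calls were lost with DESeq2, with TMM factors and with totals outside the locus, where the log2 fold changes were -0.17 to -0.32 in ∆θ2 and -0.23 to -0.30 in ∆θ1/θ2, and ∆44/48 was called at -0.38 with *Loxl2* in the totals (edgeR adjusted p = 0.0026).

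Ratios within a sample compare parts of the locus without any total. The log2 ratio of the density over *Gm16867* outside *Entpd4* to that over the gene body was -4.35 ± 0.10 (SD, n = 3) in WT of experiment 1 and -3.16 ± 0.20 in ∆44/48, a difference of 1.19. It was -4.55 ± 0.24 in WT of experiment 2, -3.44 ± 0.48 in ∆θ1, -2.97 ± 0.20 in ∆θ2 and -3.02 ± 0.05 in ∆θ1/θ2, with differences of 1.11, 1.58 and 1.53. In each comparison all 3 deletion samples lay above all 3 WT samples, and the two-sided exact permutation test gave p = 0.1, the smallest that 3 against 3 samples allow (0.12 after Benjamini-Hochberg adjustment over 12 ratios). The ratio of the 3' flank to the gene body differed by -0.21 in ∆44/48, -0.40 in ∆θ2 and -0.64 in ∆θ1/θ2, and by 0.004 in ∆θ1, where the exact permutation p was 1. The ratio of the whole upstream side to the gene body differed by 0.28, 0.23 and 0.29 in ∆44/48, ∆θ2 and ∆θ1/θ2 and by 0.004 in ∆θ1.

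**Figure D4:**
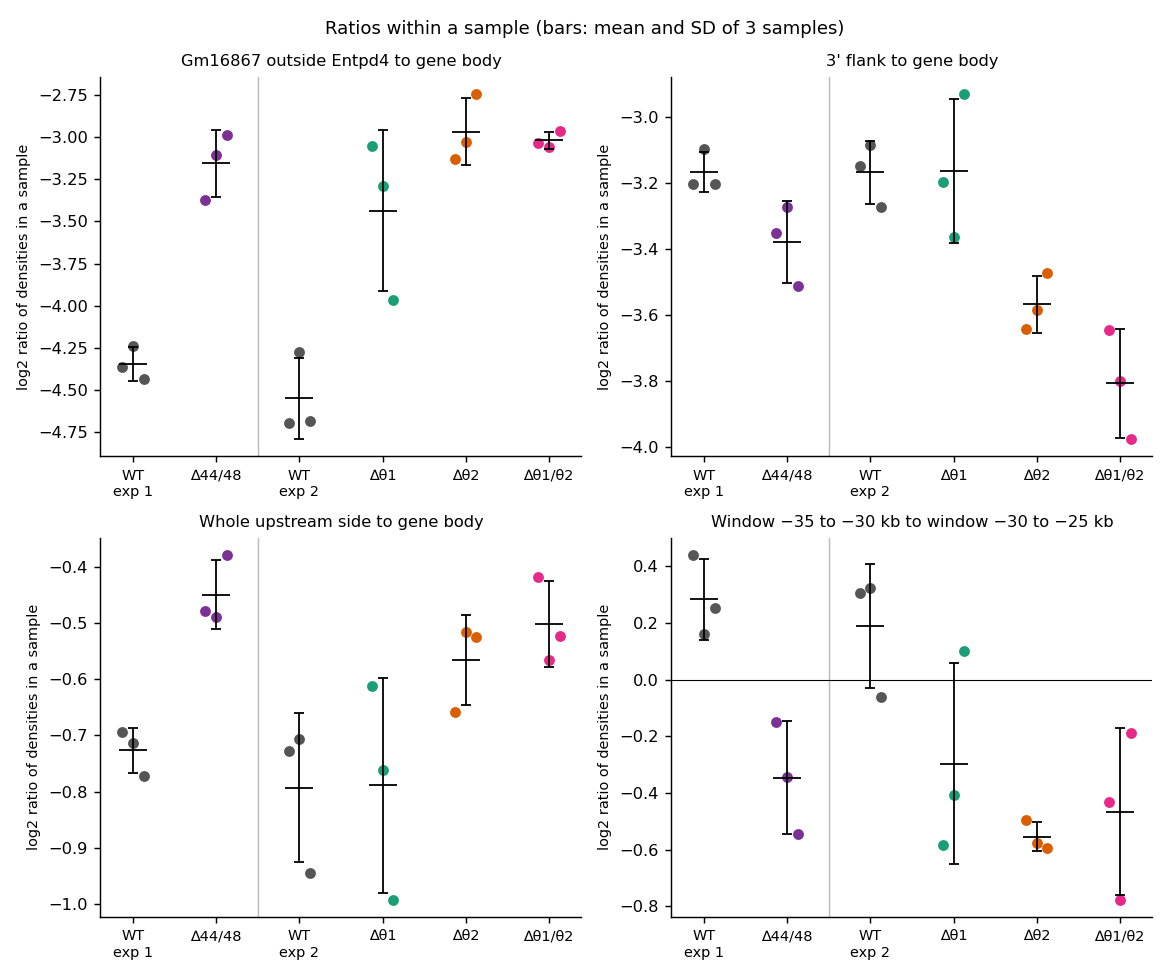
Log2 ratios of contact densities within each of the 18 samples, with 1 point for each sample and a bar at the mean of each group of 3. The ratio of *Gm16867* outside *Entpd4* to the gene body lies at group means of -4.35 and -4.55 in the WT groups and between -3.44 and -2.97 in the deletion groups.

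Besides the broad shoulder, 3 smaller peaks were called, 1 in the 3' flank and 2 in introns of *Gm16867*. The peak around -100.5 kb (chr14:69800000-69804999) reached 4.47 and 4.83 times the expected count in WT of experiments 1 and 2, and it was called in no deletion, with log2 fold changes of -0.34, 0.08, -0.52 and -0.58. The peaks around +92.0 kb (chr14:69994000-69995999) and +98.3 kb (chr14:69999500-70002999) reached only 1.44 and 1.92 times in WT of experiment 1 alone, so that they passed the rule of 2 times through the ∆44/48 samples, and their values in experiment 1 are given without a test. At +92.0 kb the density was 33.7, 37.3 and 41.9 in WT and 61.6, 79.5 and 109 in ∆44/48, and at +98.3 kb it was 34.0, 23.0 and 32.1 in WT and 52.8, 66.0 and 88.7 in ∆44/48.

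Experiment 2 took no part in calling these peaks. At +92.0 kb its WT samples had 20.7, 43.7 and 28.8, the ∆θ1 samples 109, 52.9 and 46.6 (1.22, edgeR adjusted p = 0.46), the ∆θ2 samples 109, 127 and 84.7 (1.73, edgeR adjusted p = 3.7e-07) and the ∆θ1/θ2 samples 119, 96.7 and 79.2 (1.60, edgeR adjusted p = 1.4e-04). At +98.3 kb the WT samples had 25.6, 27.4 and 39.9, the ∆θ1 samples 53.4, 70.5 and 53.3 (0.98, edgeR adjusted p = 0.46), the ∆θ2 samples 81.8, 69.7 and 90.5 (1.39, edgeR adjusted p = 2.1e-06) and the ∆θ1/θ2 samples 82.2, 74.2 and 86.7 (1.42, edgeR adjusted p = 2.8e-05). At both peaks all 9 deletion samples lay above WT. In WT of experiment 2 alone the peaks reached only 1.26 and 1.66 times the expected count. The 5 kb window from +85 to +90 kb, outside both peaks, rose by 1.48 in ∆θ2 and 1.44 in ∆θ1/θ2, so the gain was not particular to them. Of the 4 peaks, 0 were called in ∆θ1, 2 in ∆θ2 and 3 in ∆θ1/θ2, and 0.211% of 474, 1.49% of 1411 and 1.73% of 984 peaks and windows of the chromosome were called. In ∆44/48 the share was 0.267% of 2991, from which nothing is read, and no peaks are counted, because the rule used those counts. In ∆θ1/θ2 the peak at +92.0 kb was not called without WT replicate 1 (1.39, edgeR adjusted p = 0.015) or without its own replicate 1 (1.42, edgeR adjusted p = 0.031).

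Few fragments were called on their own. In ∆44/48, 1 of 1613 tested fragments of the chromosome was called (0.0620%), in ∆θ1/θ2 2 of 622 (0.322%), and all 3 were members of the locus. The ∆θ1/θ2 call at +104.0 kb had enough counts for a test only through the deletion samples. None was called in ∆θ1 (0% of 419) or ∆θ2 (0% of 726), where 52 and 94 had an unadjusted p under 0.05. DESeq2 called no fragment in any comparison, with 94, 53, 72 and 68 at an unadjusted p under 0.05 in ∆44/48, ∆θ1, ∆θ2 and ∆θ1/θ2. The 3 called fragments are shown on the plus strand, each with the DpnII site GATC at both ends in capitals, at chr14:69866881-69867067, chr14:69882169-69882267 and chr14:70006820-70007089.
fragment at -36.0 kb: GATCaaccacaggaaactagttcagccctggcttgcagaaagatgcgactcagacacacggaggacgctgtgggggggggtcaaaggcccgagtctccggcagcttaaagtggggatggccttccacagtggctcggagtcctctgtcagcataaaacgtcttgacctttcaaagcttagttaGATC
fragment at -20.7 kb: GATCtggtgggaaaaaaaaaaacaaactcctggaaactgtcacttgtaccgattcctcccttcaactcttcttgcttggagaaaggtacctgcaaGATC
fragment at +104.0 kb: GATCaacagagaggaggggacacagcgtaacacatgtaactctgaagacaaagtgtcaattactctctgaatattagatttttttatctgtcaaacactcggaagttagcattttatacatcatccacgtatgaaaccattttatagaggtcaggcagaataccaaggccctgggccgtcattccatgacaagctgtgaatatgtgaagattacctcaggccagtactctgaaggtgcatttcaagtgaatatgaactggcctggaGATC

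The fragment at -36.0 kb lies in intron 2, between exons 2 and 3, within the stretch that was lower in the deletions. It held 133, 100 and 139 counts per 100000 in WT of experiment 1 and 39.2, 56.8 and 47.4 in ∆44/48 (log2 fold change -1.32 ± 0.28, edgeR adjusted p = 0.0056). In experiment 2 it held 152, 129 and 148 in WT, 82.6, 49.8 and 29.5 in ∆θ2 (-1.27, edgeR adjusted p = 0.038), 70.2, 54.4 and 33.0 in ∆θ1/θ2 (-1.35, edgeR adjusted p = 0.071) and 62.2, 35.3 and 186 in ∆θ1. All samples of ∆44/48, ∆θ2 and ∆θ1/θ2 were below WT, though the last 2 groups were not called, and ∆θ1 overlapped with WT.

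The fragment at -20.7 kb, in intron 1, was higher in ∆θ1/θ2. It held 69.0, 108 and 57.5 counts per 100000 in WT of experiment 2 and 211, 230 and 257 in ∆θ1/θ2 (1.47 ± 0.33, edgeR adjusted p = 0.0043). In ∆θ2 it held 212, 194 and 155 (1.20, edgeR adjusted p = 0.031), in ∆θ1 156, 70.5 and 0, which reached above and below WT, and in experiment 1 it held 126, 132 and 128 in WT and 83.9, 102 and 115 in ∆44/48 (-0.30). The WT samples of the 2 experiments thus did not overlap at this fragment, and ∆44/48 lay below its WT while ∆θ2 and ∆θ1/θ2 lay above theirs.

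The fragment at +104.0 kb, in *Gm16867*, had next to no counts in WT. It had 0, 1 and 0 counts in WT of experiment 2 and 7, 13 and 15 in ∆θ1/θ2 (edgeR adjusted p = 0.0043), and 6, 11 and 4 in ∆θ2. In experiment 1 it had 1, 3 and 1 counts in WT and 1, 8 and 35 in ∆44/48, where most of the counts came from replicate 3. No fold is given, since a value fitted to so few WT counts depends on the prior count. Without 1 library of its comparison the fragment calls changed: in ∆44/48, 0 fragments were called without WT replicate 1, 2 or 3 or ∆44/48 replicate 2 or 3 and 5 without ∆44/48 replicate 1, and in ∆θ1/θ2, 0 without any WT replicate or without ∆θ1/θ2 replicate 2 and 1 without ∆θ1/θ2 replicate 1 or 3.

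Whether ∆44/48 differed from the θ deletions was tested as the difference of the effects, each against its own WT. Of the 8 intervals, 0 differed for ∆44/48 against ∆θ1, 0 against ∆θ2 and 0 against ∆θ1/θ2 by edgeR. At an unadjusted p under 0.05 there were 2, 0 and 5 of the 8, and 125, 146 and 148 rows on the whole chromosome. This does not show that the deletions act alike, and the experiments cannot be told apart from the deletions in these tests. Of the 494 fragments, 367 had the 10 counts over the 6 samples compared that a test required in ∆θ1, against 476 in ∆44/48.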

How the data were processed

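Per the labels and the study's methods, the authors used Trim Galore for adapters and FLASH to join read pairs, cut the reads in silico at DpnII sites and mapped the pieces with Bowtie to mm9. The Capture-C scripts then discarded PCR repeats, and the authors deposited the raw counts of distinct interactions for each viewpoint and fragment, not normalised. Counts from the *Slc25a37* viewpoint were used here, and fragments were assigned by their midpoint. Genes are from the GENCODE annotation of mm9. The locus, its intervals and lists were chosen with earlier results of these data known. Fragments within 1 kb of the viewpoint fragment were left out. Densities are counts per kb per 100000 chromosome 14 counts outside this zone and *Loxl2*, and these totals (1073 to 80178) were the library sizes. Rows with at least 10 counts over the compared samples went into the quasi-likelihood test of edgeR 4.0.16 under R 4.3.3 and Benjamini-Hochberg adjustment over all rows of chromosome 14: fragments, 8 intervals with 10 kb windows elsewhere, peaks with 5 kb windows elsewhere, or 5 kb windows. A call is an adjusted p under 0.01, the threshold in the study's methods. Peaks were runs of 2 kb windows with at least 2 times the counts expected at their distance. Named fragments are those with the most counts in a peak and those called with groups that did not overlap. Each deletion was compared with WT of its own experiment, and differences between deletions were fitted as interaction terms. Log2 ratios within samples were put to exact permutation tests, two-sided.

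The alternatives were DESeq2 1.42.0 with its own size factors, TMM factors, totals outside the locus or including *Loxl2*, a zone wider by 5 kb, minima of 30 counts or 1 count, a threshold of 0.05, peaks of 3 times the expected count or 4 kb windows, ratios without the fragment with the most counts, 1 fit over all groups of an experiment, a block for the replicate number, and leaving out every replicate in turn. The 5 kb windows and the ratios to the gene body other than that of the upstream side were added after the data were seen. In data simulated with a log2 fold change of 1, edgeR recovered 12% of changed fragments among 1613 in ∆44/48, 2.88% among 419 in ∆θ1, 27% among 726 in ∆θ2 and 23.5% among 622 in ∆θ1/θ2. Of changed 5 kb windows it recovered 1.5% among 2990, 5.1% among 473, 3% among 1410 and 3.5% among 983. Between replicates the chi-square per degree of freedom was 1.34 to 3.07, above that of counting error alone, so no pair looked like 1 library deposited under 2 names. Python 3.11.15 with pandas 2.3.3, numpy 2.4.6, matplotlib 3.10.9 and scipy 1.17.1 made the tables and plots.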

Additional observations from a re-analysis of the deposited data

Results flagged for a closer look

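Viewpoints on other chromosomes also captured fragments of the mitoferrin locus, a signal that no comparison above used. In experiment 1 they gave 576 counts on the locus and 59002 on the rest of chromosome 14, so that the density on the locus was 5.84 times that of the rest, with 3.75 to 10.3 times in single samples. In experiment 2 they gave 156 counts on the locus and 9973 on the rest, 9.36 times the density of the rest, with 0 to 24.1 times in single samples. Experiment and depth differ together, and the difference between the experiments was not tested.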

How the results depend on the processing

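The gains over *Gm16867* outside *Entpd4* and over *Entpd4* kept their direction in all alternatives, except *Entpd4* in ∆θ1. In ∆θ2 and ∆θ1/θ2 the gain over *Gm16867* was called in all alternatives. Scaling shifted the log2 fold changes of the intervals by amounts that differed between the deletions. The median shift of the log2 fold changes of the intervals was 0.02 in ∆44/48, -0.51 in ∆θ1, 0.27 in ∆θ2 and 0.32 in ∆θ1/θ2 with DESeq2, -0.06, -1.09, 0.21 and 0.27 with TMM factors, 0.10, -0.04, 0.12 and 0.35 with totals outside the locus, and -0.07, -0.08, -0.10 and -0.10 with *Loxl2* in the totals. At the depth of ∆θ1, 367 of 494 fragments could be tested. The cause of each change was not tested.

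The number of intervals called was 2 in ∆44/48, with 1 for DESeq2, 0 for TMM factors, 1 for totals outside the locus and 1 with the replicate block. In ∆θ1 it was 2, with 0 for DESeq2, 6 for TMM factors, all lower, and 1 each for totals outside the locus, totals with *Loxl2*, a minimum of 1 count and the replicate block. In ∆θ2 it was 4, with 3 for DESeq2, all higher, 1 for TMM factors and 2 for totals outside the locus, both higher. In ∆θ1/θ2 it was 6, with 7 for DESeq2, 3 for TMM factors and 7 for totals outside the locus, all higher.

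The number of fragments called was 1 in ∆44/48, with 4 at a threshold of 0.05, 0 for DESeq2, TMM factors or totals outside the locus and 2 with *Loxl2* in the totals. In ∆θ2 it was 0, with 10 at a threshold of 0.05 and 1 with the wider zone. In ∆θ1/θ2 it was 2, with 7 at a threshold of 0.05, 0 for DESeq2, TMM factors or totals with *Loxl2* and 42, all higher, for totals outside the locus.

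Peaks were not counted in ∆44/48, whose samples took part in calling them. The number of peaks called was 0 in ∆θ1, with 1 for TMM factors, lower, the peak at +38.3 kb (-0.98). In ∆θ2 it was 2, with 0 for peaks of 3 times and 1 for windows of 4 kb, and in ∆θ1/θ2 it was 3, with 0 for peaks of 3 times.

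The number of 5 kb windows called was 8 in ∆44/48, with 1 for DESeq2, 0 for TMM factors and 3 for totals outside the locus, all higher. In ∆θ1 it was 0, with 1 at a threshold of 0.05 and 16, all lower, for TMM factors. In ∆θ2 it was 13, with 11 for DESeq2, all higher, 6 for TMM factors and 7 for totals outside the locus, all higher. In ∆θ1/θ2 it was 14, with 25 for DESeq2 (24 higher), 22 for TMM factors and 25, all higher, for totals outside the locus. The difference between the effects of ∆44/48 and ∆θ1 was called in 0 intervals, and in 3 for TMM factors.

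Some log2 fold changes changed sign, most of them near 0. *Entpd4* in ∆θ1 was not near 0, as it was a called gain in the main fit. With DESeq2 these were *D930020E02Rik* in ∆θ1 (-0.23), the gene body (0.23) and the stretch from the promoter to *D930020E02Rik* (0.25) in ∆θ2, and the peak at -100.5 kb in ∆θ1 (-0.22). With TMM factors they were the stretch from the promoter to *D930020E02Rik* in ∆44/48 (-0.020) and ∆θ2 (0.19), *D930020E02Rik* (-0.81), *Entpd4* (-0.48) and the peak at -100.5 kb (-0.70) in ∆θ1, and the gene body in ∆θ2 (0.18). With totals outside the locus they were the gene body in ∆44/48 (0.0004) and ∆θ2 (0.075) and the stretch from the promoter to *D930020E02Rik* in ∆θ2 (0.105). With *Loxl2* in the totals they were that stretch in ∆44/48 (-0.055), the stretch to *Gm16677* (-0.040) and the peak at +38.3 kb (-0.086) in ∆θ2 and the gene body in ∆θ1/θ2 (-0.045). In ∆θ1 the ratio of the upstream side to the gene body was -0.015 without the fragments with the most counts, and the ratio of the 3' flank to the gene body was -0.001 without them and -0.024 with the wider zone.

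Leaving out each replicate in turn gave 1 to 2 called intervals in ∆44/48, 0 to 2 in ∆θ1, 3 to 4 in ∆θ2 and 4 to 5 in ∆θ1/θ2. Fragments ran from 0 to 5 in ∆44/48, with 0 in ∆θ1 and ∆θ2 and 0 to 1 in ∆θ1/θ2. Called peaks numbered 0 in ∆θ1, 2 in ∆θ2 and 1 to 3 in ∆θ1/θ2 (1 without ∆θ1/θ2 replicate 1). Windows ran from 6 to 11 in ∆44/48, 0 to 1 in ∆θ1 (1 without WT replicate 1 or ∆θ1 replicate 3), 9 to 16 in ∆θ2 and 11 to 17 in ∆θ1/θ2. Without ∆44/48 replicate 1, which stood apart in repeat counts, 2 intervals and 11 windows were called. Differences between the effects of 2 deletions stayed at 0 called intervals. The ratio of the upstream side to the gene body differed by 0.24 to 0.30 in ∆44/48, -0.084 to 0.11 in ∆θ1, 0.15 to 0.27 in ∆θ2 and 0.21 to 0.33 in ∆θ1/θ2. The ratio of *Gm16867* to the gene body differed by 1.11 to 1.30, 0.92 to 1.38, 1.47 to 1.72 and 1.46 to 1.67. The ratio of the 3' flank differed by -0.26 to -0.14, -0.11 to 0.10, -0.45 to -0.36 and -0.72 to -0.55. The sign of the log2 fold change was not stable for the gene body in ∆θ1 (-0.11 to 0.036), ∆θ2 (-0.10 to 0.017) and ∆θ1/θ2 (-0.0058 to 0.10), for the stretch from the promoter to *D930020E02Rik* in ∆44/48 (-0.13 to 0.10) and ∆θ2 (-0.10 to 0.070), for the peak at +38.3 kb in ∆44/48 (-0.022 to 0.14) and ∆θ2 (-0.020 to 0.069), and for the peak at -100.5 kb in ∆θ1 (-0.093 to 0.20).

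Replicate numbers did not pair the samples. Same-numbered WT and deletion samples had correlations of -0.29 to 0.21 over the windows in their deviations from the group means, not every sample correlated best with its own number, and the block moved the counts of calls by over 1.5 times only where stated. The interval calls it ended were those of *Entpd4* in ∆44/48 (0.55, edgeR adjusted p = 0.013) and in ∆θ1 (0.60, edgeR adjusted p = 0.013).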
